A study of Mus musculus with 4 samples.

Results

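A set of 10 immediate-early response genes was followed in the colon of 21-day-old mice: Fos, Fosb, Jun, Junb, Egr1, Atf3, Klf2, Klf6, Ier2 and Dusp1. They were chosen by symbol, and all 10 were found among the 46095 symbols of the count table. Total RNA of colon came from C57BL/6 mice on postnatal day 21, with 2 libraries of wild-type (WT) mice and 2 of mice labelled Esr2-KO, whose genotype is given as Esr2-/-. Esr2 encodes estrogen receptor β, and the comparison asks how colon RNA differs without it. The series' design text speaks of triplicates, of which 2 libraries a group are analysed here. The labels give neither the deleted part of Esr2, the number of animals in a library, the segment of colon, nor the hour and interval of dissection, and differences of the groups in these cannot be told apart from genotype. Nor is it stated whether replicate libraries are separate animals, so that p-values measure the spread between these libraries, which may be technical.

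Immediate-early genes are transcribed within minutes of a stimulus, without new protein synthesis, because the factors that switch them on are already present and need only be phosphorylated. Growth factors, cytokines, membrane depolarisation, mechanical strain and tissue dissection all act on them through the MAP kinases and through factors such as SRF, CREB and ATF2. Their mRNAs decay fast, and in the gut wall they are made by epithelium, muscle, stroma and blood cells alike, so that their level in a tissue extract records both the state of the cells and the way the tissue was collected. In bulk RNA fewer cells of a type and less RNA per cell cannot be told apart.

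Upstream sequence is shown for 5 of the genes, because Jun, Klf6 and Fosb were lower and Junb and Klf2 were higher in both Esr2-KO libraries than in both WT libraries. None of the 5 differed at an edgeR adjusted p under 0.05, and 54.7% of all genes tested separated the groups in this way. Each run is the 250 bases before the transcript start used, on the gene's own strand, 5′ to 3′, from RefSeq on GRCm38.p6. For Fosb the annotated gene begins at chr7:19310118, inside the window, so that part of this window lies within the gene. That table matched 8 of the 10 genes, all but Egr1 and Ier2. The windows lie at chr4:95052223-95052472 (minus strand, Jun), chr13:5861239-5861488 (plus strand, Klf6), chr7:19310046-19310295 (minus strand, Fosb), chr8:84978749-84978998 (minus strand, Junb) and chr8:72318812-72319061 (plus strand, Klf2). Capitals mark matches to TGACNTCA, the letters bound by CREB, ATF and Jun:ATF dimers.
Jun: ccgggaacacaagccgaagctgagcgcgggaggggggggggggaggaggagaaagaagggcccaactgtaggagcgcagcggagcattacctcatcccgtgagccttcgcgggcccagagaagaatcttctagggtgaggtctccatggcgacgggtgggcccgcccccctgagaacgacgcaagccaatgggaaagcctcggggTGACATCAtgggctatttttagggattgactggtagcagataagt
Klf6: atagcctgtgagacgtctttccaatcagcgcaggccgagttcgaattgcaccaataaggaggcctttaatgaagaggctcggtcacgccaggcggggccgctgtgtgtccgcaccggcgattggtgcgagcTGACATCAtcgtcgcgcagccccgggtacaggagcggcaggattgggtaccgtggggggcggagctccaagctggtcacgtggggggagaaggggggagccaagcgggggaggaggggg
Fosb: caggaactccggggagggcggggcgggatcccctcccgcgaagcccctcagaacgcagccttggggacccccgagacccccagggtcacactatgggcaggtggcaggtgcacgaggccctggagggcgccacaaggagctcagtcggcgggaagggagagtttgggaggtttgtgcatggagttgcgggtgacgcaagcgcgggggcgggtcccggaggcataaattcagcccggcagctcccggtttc
Junb: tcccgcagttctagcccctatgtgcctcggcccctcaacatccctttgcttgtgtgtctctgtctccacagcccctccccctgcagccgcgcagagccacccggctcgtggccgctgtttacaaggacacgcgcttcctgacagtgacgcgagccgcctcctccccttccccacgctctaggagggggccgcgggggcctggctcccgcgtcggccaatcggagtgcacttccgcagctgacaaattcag
Klf2: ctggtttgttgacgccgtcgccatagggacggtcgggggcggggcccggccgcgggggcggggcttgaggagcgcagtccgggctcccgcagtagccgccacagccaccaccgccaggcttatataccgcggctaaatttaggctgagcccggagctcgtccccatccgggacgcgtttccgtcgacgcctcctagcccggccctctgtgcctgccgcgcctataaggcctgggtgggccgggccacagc
The letters TGACNTCA were found on either strand in Jun, Klf6 and Dusp1, 3 of the 8 windows, and in 7.59% of 27018 promoter windows of the same length. Jun and Klf6 both carried TGACATCA, and Dusp1 carried TGACGTCA. Fosb, which was also lower in both Esr2-KO libraries, did not hold the letters, and Dusp1, which held them, was not lower. Any link of these letters to the levels was not tested. The AP-1 letters TGANTCA (6.87% of all windows) and the CArG box of SRF (1.40%) were in none of the 8 windows. The KLF letters CCNCNCCC were in all 8 and in 45.6% of all windows, and GCGNGGGCG, bound by EGR proteins, was in Fosb and Klf2 and in 4.65% of all windows. The GCGNGGGCG match of Fosb lies in the part of its window that is within the annotated gene. A match is a run of letters and not a measured site, and the absence of one speaks for these 250 bases alone.

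The libraries held 33709643 and 33329655 counts (WT 1 and WT 2) and 32986548 and 30826790 counts (Esr2-KO 1 and Esr2-KO 2). Levels are given as CPM, the depth-scaled count, after each library total was multiplied by its TMM factor, which corrects for libraries dominated by a few genes. The scaling matters here because acinar genes of the pancreas, 37 listed and 32 with a count, took 21.2% of the counts of Esr2-KO 2 and 0.258% to 0.407% of the other libraries. The 10 genes together took 0.0972%, 0.0759%, 0.0779% and 0.0662% of the counts in WT 1, WT 2, Esr2-KO 1 and Esr2-KO 2 before scaling, and summed to 902, 727, 752 and 774 CPM after it. All 15 listed markers of colon epithelium had counts in every library. Esr2 itself had 21, 13, 6 and 16 counts, too few to check the genotype labels (log2 difference of Esr2-KO from WT -0.32 ± 0.77, SE, edgeR adjusted p = 0.854).

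None of the 10 genes passed the threshold for a difference between Esr2-KO and WT colon. The quasi-likelihood test of edgeR was adjusted by Benjamini-Hochberg over 17169 genes, with an adjusted p of 0.05 as the limit, and 2.69% of all genes passed it, 1.30% higher and 1.39% lower in Esr2-KO. At an unadjusted p under 0.05 there were 4 of the 10, namely Klf2, Junb and Ier2 on the higher side and Jun on the lower, where 20.6% of all genes reached that level. DESeq2 called 1 of the 10, Klf2, where it called 10.2% of all genes, and limma-voom called 0, where it called 3.53%. The share that DESeq2 called among the 10 is thus the background share. The median log2 fold change of the 10 was 0.01, beside -0.003 over all genes, with 5 positive and 5 negative. In 6 of the 10 the 2 groups did not overlap, 3 with Esr2-KO higher (Junb, Klf2, Ier2) and 3 with it lower (Fosb, Jun, Klf6), which is near the background: 54.7% of all genes did so, 27.0% higher and 27.7% lower. With 2 libraries against 2, an exact permutation test cannot give a two-sided p below 0.333.

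**Figure D1:**
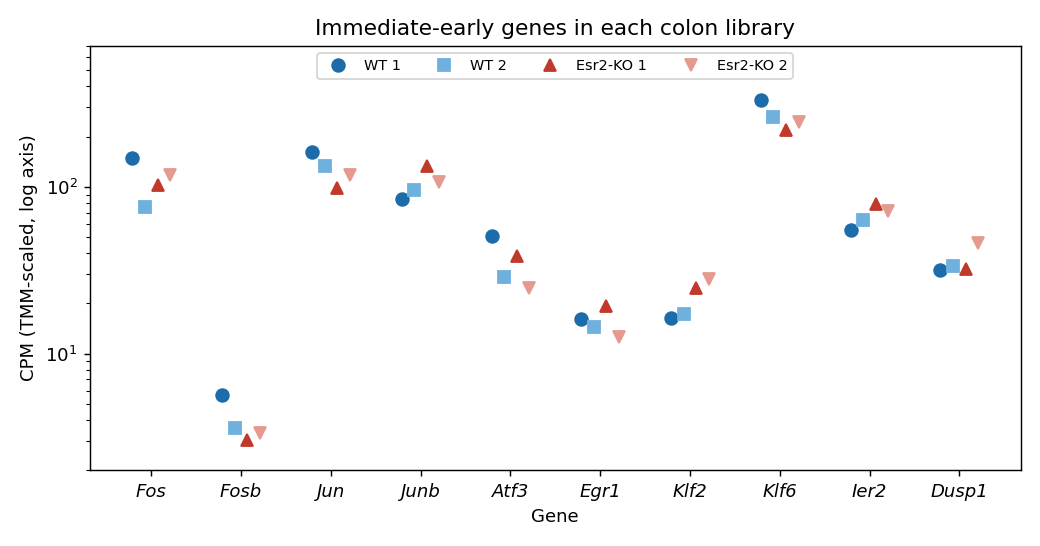
CPM on a log axis for each of the 10 genes, 1 symbol per library (blue for WT, red for Esr2-KO). Fos and Atf3 spread most between the WT libraries, while Jun, Klf6 and Fosb were lower, and Junb, Klf2 and Ier2 higher, in both Esr2-KO libraries.

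Fos and Fosb encode the Fos side of the AP-1 dimer, which binds DNA only when paired with a Jun protein. Fos stood at 148 CPM in WT 1 and 76.1 CPM in WT 2, whereas Esr2-KO 1 held 102 CPM and Esr2-KO 2 held 117 CPM. WT 1 was thus the highest and WT 2 the lowest of the 4, and both Esr2-KO libraries lay between them. Esr2-KO differed from WT by -0.03 ± 0.29 in log2 (SE, n = 2 libraries in each group, 95% interval -0.72 to 0.66, edgeR adjusted p = 0.965), and without WT 1 it turned to 0.53 (adjusted p = 0.275). The log2 ratio of WT 1 over WT 2 was 0.96 for Fos, larger in size than for 93.8% of all genes tested.

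Fosb, a relative of Fos that is best known from neurons, was the scarcest of the 10, with 204 and 124 counts in WT and 104 and 88 counts in Esr2-KO. Exact 95% Poisson intervals of these counts, which cover counting error only, were 177 to 234, 103 to 148, 85.0 to 126 and 70.6 to 108. Apart from WT 1 the intervals overlapped. Fosb stood at 5.62 and 3.56 CPM in the WT libraries, against 3.04 and 3.34 CPM in the knockouts, and the log2 fold change was -0.53 ± 0.32 (edgeR adjusted p = 0.407). It was -0.16 without WT 1 and -0.80 without WT 2.

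Jun encodes the partner that makes AP-1 a strong activator, and Junb a relative that often restrains it. Jun stood at 161 and 134 CPM in the WT libraries, against 98.3 and 118 CPM in the knockouts. Both Esr2-KO libraries were lower, by a log2 fold change of -0.45 ± 0.15 (95% interval -0.81 to -0.09, edgeR adjusted p = 0.168). Junb went the other way, with 84.4 and 95.3 CPM in the WT libraries, against 134 and 107 CPM in the knockouts. Its log2 fold change was 0.42 ± 0.15 (95% interval 0.07 to 0.77, edgeR adjusted p = 0.173). The annotated exons of Junb overlap Prdx2 on the other strand over 173 bases and those of Jun overlap Junos over 232. Prdx2 had 5111 to 6906 counts and Junos 55 to 121, and no label says whether the counting used strand, so that reads of Junb and Prdx2 cannot be told apart there.

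Atf3, a stress-induced factor of the ATF family that pairs with Jun proteins, had the widest spread of the 10. It stood at 50.4 and 28.8 CPM in the WT libraries, against 38.7 and 24.8 CPM in the knockouts, 2.03-fold from the lowest library to the highest. WT 1 was again the highest, and the groups overlapped, with a log2 difference of -0.32 ± 0.31 (edgeR adjusted p = 0.600) that turned to 0.14 without WT 1. Egr1, a zinc finger factor that is the classic target of SRF and its ternary complex partners, stood at 16.2 and 14.5 CPM in the WT libraries, against 19.3 and 12.6 CPM in the knockouts. The Esr2-KO libraries enclosed the WT libraries, with a log2 fold change of 0.06 ± 0.23 (95% interval -0.50 to 0.61, edgeR adjusted p = 0.917). It turned to -0.28 without Esr2-KO 1 and to -0.009 without WT 2.

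Klf2 and Klf6 encode zinc finger factors of the Krüppel-like family. Klf2 is known for shear-stress responses of endothelium and for quiescence of T cells, and Klf6 for injury responses and wound repair. Klf2 came closest to the threshold, with 16.4 and 17.3 CPM in the WT libraries, against 24.7 and 28.1 CPM in the knockouts. The WT libraries were nearly level, and both Esr2-KO libraries were above them, a 1.57-fold difference (log2 fold change 0.65 ± 0.15, 95% interval 0.30 to 0.997, edgeR adjusted p = 0.0714). Klf2 passed without a low-count filter (0.0199), with DESeq2 (0.0117) and without Esr2-KO 1 (0.0269), and the adjusted p ran from 0.0117 to 0.353 over 14 alternatives. Klf6 stood at 332 and 261 CPM in the WT libraries, against 220 and 245 CPM in the knockouts. It was lower in both Esr2-KO libraries, with a log2 fold change of -0.35 ± 0.16 whose 95% interval of -0.75 to 0.04 took in 0 (edgeR adjusted p = 0.286). It came to -0.17 without WT 1.

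Because Klf2 is strong in endothelium, it was set beside 18 endothelial markers, 17 of them tested. None passed the threshold with edgeR or limma-voom (2 at an unadjusted edgeR p under 0.05) and 1, Tie1, with DESeq2. Over all genes 2.69%, 3.53% and 10.2% passed with edgeR, limma-voom and DESeq2, and 20.6% had an unadjusted edgeR p under 0.05. Of the endothelial list, 15 of the 17 log2 fold changes were positive, beside 49.7% over all genes, with a median of 0.15. The summed level was 324 and 361 CPM in the WT libraries, against 379 and 386 CPM in the knockouts. Tie1, an endothelial receptor kinase (0.54 ± 0.14, edgeR adjusted p = 0.0939), and Egfl7, a secreted endothelial protein (0.36 ± 0.15, edgeR adjusted p = 0.233), led that list by p-value. Klf2 amounted to 5.06% and 4.80% of the summed endothelial level in WT and to 6.52% and 7.29% in Esr2-KO, so that Klf2 was also higher relative to these markers in both Esr2-KO libraries. Of the 15 tested markers of T and NK cells, which carry Klf2 as well, none passed with edgeR or limma-voom (4 at an unadjusted edgeR p under 0.05), and DESeq2 called Gzma and Gzmb. They had a median log2 fold change of -0.79 with 12 negative, and a summed level of 47.2 and 68.5 CPM in the WT libraries, against 54.4 and 34.8 CPM in the knockouts. The part of either cell type in the Klf2 difference was not tested.

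Ier2 encodes a small nuclear protein that modulates transcription. It stood at 54.9 and 63.6 CPM in the WT libraries, against 79.4 and 72.0 CPM in the knockouts. Both Esr2-KO libraries were above both WT libraries, with a log2 fold change of 0.35 ± 0.12 (95% interval 0.06 to 0.65, edgeR adjusted p = 0.180). Dusp1 encodes the phosphatase that switches off p38 and JNK and so ends the response that induces it. It stood at 31.7 and 33.4 CPM in the WT libraries, against 32.4 and 46.2 CPM in the knockouts. The other 3 libraries were level and Esr2-KO 2 was higher, with a log2 difference of 0.27 ± 0.19 (edgeR adjusted p = 0.458) that came to -0.0015 without Esr2-KO 2.

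**Figure D2:**
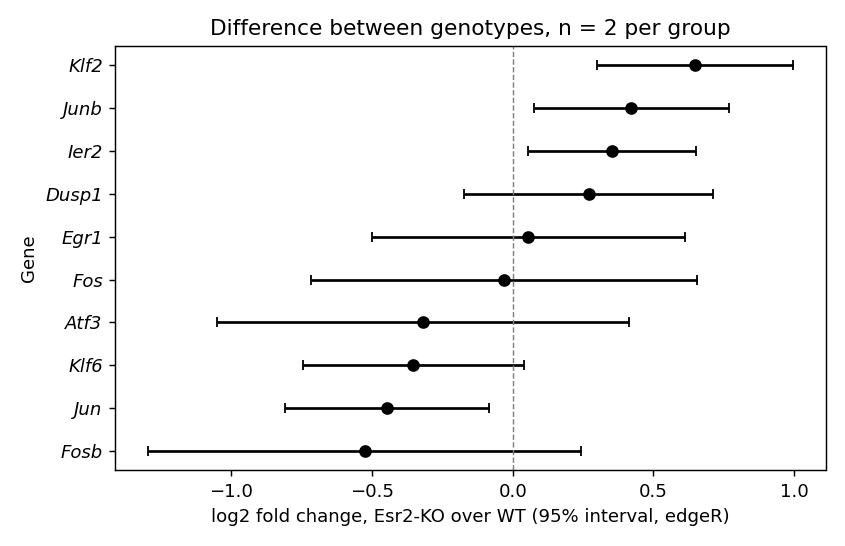
Log2 fold change of Esr2-KO over WT with its 95% interval from edgeR for each gene, n = 2 per group, with a dashed line at 0. The intervals of Klf2 (0.30 to 0.997), Junb, Ier2 and Jun do not reach 0, but none of the 10 passed after adjustment over all genes.

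As a check of tissue handling, whose part in these levels was not tested, the libraries can be read against each other. WT 1 was the highest library for 5 of the 10 (Fos, Fosb, Jun, Atf3, Klf6) and the lowest for 4 (Junb, Klf2, Ier2, Dusp1). WT 2 was the highest for none of them and the lowest for Fos. Esr2-KO 1 was the highest for Junb, Egr1 and Ier2, and Esr2-KO 2 for Klf2 and Dusp1. Over all genes tested, 27.1%, 22.5%, 19.5% and 30.9% had their highest value in WT 1, WT 2, Esr2-KO 1 and Esr2-KO 2. No library was thus high for all 10 genes. The fold from the lowest to the highest library ran from 1.45 (Ier2) to 2.03 (Atf3), with a median of 1.61 beside 1.47 over all genes. The median size of the log2 ratio between libraries of a group was 0.24 in WT and 0.23 in Esr2-KO for the 10, and 0.20 and 0.23 for all genes.

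Per kilobase of annotated exon (GENCODE M21), the mean level over the 4 libraries fell in the order Klf6 (60.2 CPM per kb), Fos (47.2), Junb (45.7), Ier2 (44.3), Jun (40.1), Atf3 (16.6), Klf2 (11.7), Dusp1 (10.8), Egr1 (3.49) and Fosb (0.623). Klf6 ranged from 50.05 to 75.7 CPM per kb, Fos from 32.4 to 63.0, Junb from 36.7 to 58.0, Ier2 from 36.1 to 52.2 and Jun from 30.8 to 50.6. The ranges of these 5 overlapped, as did those of Atf3, Klf2 and Dusp1. Egr1 (2.82 to 4.30 CPM per kb) lay below all of them and above Fosb (0.487 to 0.900) in every library. The lengths come from an annotation that need not be the one used for counting.

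Ratios of counts within a library do not depend on how libraries are scaled, nor on the share of counts that pancreatic transcripts took. The ratio of Jun to Junb was 1.91 and 1.41 in WT and 0.736 and 1.11 in Esr2-KO, so that it was 1.82-fold higher in WT (geometric means 1.64 and 0.902). Fos to Fosb stood at 26.4 and 21.4 in WT and 33.7 and 35.1 in Esr2-KO, 1.45-fold higher in Esr2-KO. Klf2 to Klf6 stood at 0.0492 and 0.0665 in WT and 0.112 and 0.115 in Esr2-KO, 1.99-fold higher in Esr2-KO. Jun to Klf6, by contrast, was 0.486, 0.514, 0.447 and 0.484, nearly constant in all 4 libraries while Jun and Klf6 each varied. Groups did not overlap in these 4 ratios, nor in 23 of the 45 pairs of the 10 genes in all (51.1%), these 4 included. For Jun to Junb and Klf2 to Klf6 this restates the levels above, where the genes of each pair went opposite ways. The 4 pairs shown were picked from the 45. The 51.1% of pairs stands beside 54.7% of all single genes tested whose groups did not overlap. No share over all gene pairs was computed. The ratios are of counts without regard to length and were compared with no test.

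**Figure D3:**
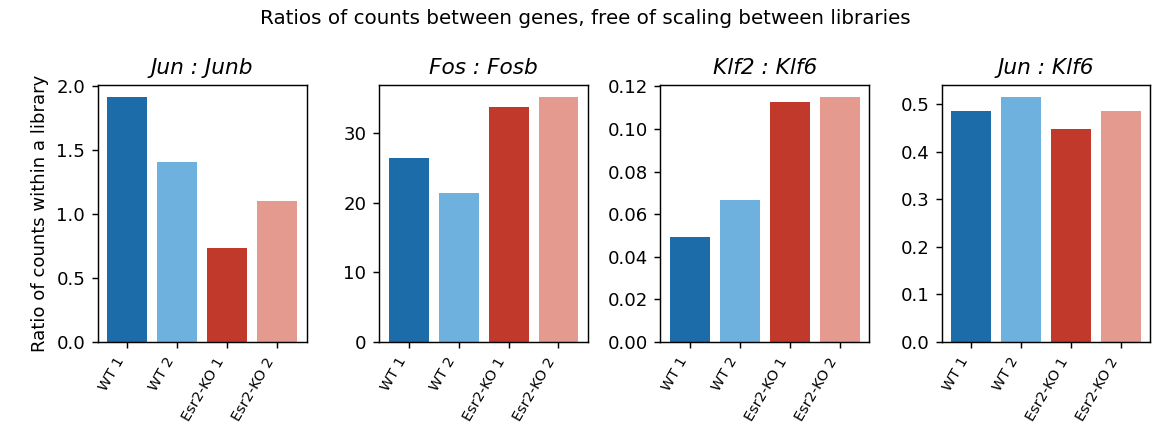
Ratio of counts between 2 genes within each library, 1 bar per library (blue for WT, red for Esr2-KO), each panel from 0 on its own scale. Jun : Junb was lower and Klf2 : Klf6 and Fos : Fosb were higher in both Esr2-KO libraries, while Jun : Klf6 kept between 0.447 and 0.514.

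Relatives and partners of the 10 genes were read from 4 lists, of other AP-1 family members, other early transcription factors, feedback inhibitors and early effectors. With edgeR, 4 of their 77 tested genes rose and 4 fell in Esr2-KO, where 2.69% of all genes passed. At an unadjusted edgeR p under 0.05 there were 25 of the 77, where 20.6% of all genes reached that level. The median log2 fold change was 0.03, with 40 positive and 37 negative, beside 49.7% positive over all genes. DESeq2 called 12 higher and 8 lower, where it called 10.2% of all genes. Limma-voom called 6 higher and 4 lower, where it called 3.53%. The lists were chosen with earlier results of these data known, and the calls that follow are those of edgeR. In the AP-1 family Batf2, a bZIP factor of myeloid cells, rose (0.89 ± 0.17, 14.04 and 13.5 against 22.9 and 28.3 CPM, edgeR adjusted p = 0.0476) and the other 9 did not pass with edgeR. Maff, a small Maf protein, passed with DESeq2 and stood at 18.7 and 15.3 against 28.5 and 27.5 CPM (0.72 ± 0.15, edgeR adjusted p = 0.0634). Jund, the Jun protein that most cells make without a stimulus, stood at 361 and 334 CPM in the WT libraries, against 443 and 423 CPM in the knockouts (edgeR adjusted p = 0.281).

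Among 20 other early transcription factors 2 rose and 1 fell with edgeR, and DESeq2 also called Klf5 and Per1, both higher. Over all genes 2.69% passed with edgeR and 10.2% with DESeq2. Csrnp1, a nuclear protein named for induction by AXIN1, rose from 7.08 and 6.496 to 19.9 and 17.3 CPM (1.45 ± 0.18, edgeR adjusted p = 0.0221). Bhlhe40, a repressor tied to the circadian clock and to hypoxia, rose from 74.4 and 86.6 to 156 and 151 CPM (0.93 ± 0.12, edgeR adjusted p = 0.0257). Ier5, a relative of Ier2 that acts with heat shock factor HSF1, fell from 66.2 and 53.1 to 32.3 and 32.3 CPM (-0.88 ± 0.14, edgeR adjusted p = 0.0338), while Ier2 was higher in both Esr2-KO libraries. The orphan receptors Nr4a1, Nr4a2 and Nr4a3, which are induced beside Fos, did not pass. Nr4a1 stood at 21.9 and 10.7 CPM in the WT libraries, against 13.7 and 10.3 CPM in the knockouts, with WT 1 the highest as for Fos and Atf3 (edgeR adjusted p = 0.513), and its log2 fold change of -0.44 turned to 0.17 without WT 1. Nr4a2 stood at 7.30 and 4.97 against 3.45 and 2.35 CPM (edgeR adjusted p = 0.139) and Nr4a3 at 3.74 and 2.18 against 1.40 and 1.67 CPM (edgeR adjusted p = 0.246). The Nr4a genes were described after their values were seen.

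Of 25 feedback inhibitors 1 rose and 1 fell with edgeR, and DESeq2 also called Gadd45b on the higher and Dusp10, Rgs2 and Socs3 on the lower side. Over all genes 2.69% passed with edgeR, 10.2% with DESeq2 and 3.53% with limma-voom. Tnfaip3, the ubiquitin-editing brake on NF-κB also called A20, rose from 47.9 and 45.4 to 75.9 and 80.2 CPM (0.74 ± 0.11, edgeR adjusted p = 0.0282). Nfkbiz, a nuclear IκB protein that directs a subset of NF-κB targets, fell from 46.3 and 54.0 to 25.8 and 25.2 CPM (-0.98 ± 0.13, edgeR adjusted p = 0.0257). Of 22 early effectors none rose and 2 fell with edgeR. Limma-voom and DESeq2 both also called Mcl1, a survival protein of the BCL2 family, and Plk3, a stress-responsive kinase, as higher, and DESeq2 further called Edn1 and Rhob as higher and Ereg as lower. Plk3 stood at 15.6 and 26.0 CPM in the WT libraries, against 46.4 and 58.6 CPM in the knockouts (1.34, edgeR adjusted p = 0.0515), and Mcl1 at 348 and 340 against 564 and 513 CPM (0.65, edgeR adjusted p = 0.0795). Thbs1, a matrix glycoprotein and a target of SRF, fell from 78.3 and 60.7 to 35.9 and 32.5 CPM (-1.02 ± 0.15, edgeR adjusted p = 0.0300). Hbegf, a membrane-bound ligand of the EGF receptor, fell from 23.8 and 20.0 to 9.82 and 10.7 CPM (-1.09 ± 0.17, edgeR adjusted p = 0.0334). Without WT 1 none of the 77 passed with edgeR (20 at an unadjusted p under 0.05), while the calls over all genes fell from 462 to 165. The log2 fold changes then were 1.52 for Csrnp1, 0.92 for Batf2, 0.82 for Bhlhe40 and 0.78 for Tnfaip3, and -1.08 for Nfkbiz, -0.96 for Hbegf, -0.83 for Thbs1 and -0.72 for Ier5, of the same direction as with all 4 libraries. Without WT 2 Csrnp1, Batf2, Nfkbiz, Tnfaip3 and Hbegf did not pass. Batf2 also failed without the pancreas-rich Esr2-KO 2, with upper-quartile factors, with library totals alone and under the replicate block, which also ended the call of Hbegf. Bhlhe40 and Tnfaip3 did not pass with library totals alone.

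Above these genes lie kinases and resident factors, of which 33 were tested. Map2k1, the kinase MEK1 that activates ERK, rose from 156 and 161 to 276 and 248 CPM (0.72 ± 0.13, edgeR adjusted p = 0.0423), and did not pass without WT 1, without WT 2 (0.70 and 0.76), with library totals alone or under the replicate block. The other 32 did not pass, where 2.69% of all genes passed. At an unadjusted edgeR p under 0.05 there were 6 of the 33, where 20.6% of all genes reached that level. The median log2 fold change of the list was 0.17, with 24 positive and 9 negative, beside 49.7% positive over all genes.

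Markers of cell types and of gut epithelium also moved between the groups, and their part in the differences above was not tested. Of 15 colon epithelial markers 2 fell and none rose with edgeR, where 2.69% of all genes passed, and the median log2 fold change was 0.19. In 12 the groups did not overlap (8 higher and 4 lower in Esr2-KO), beside 54.7% of all genes (27.0% higher and 27.7% lower). DESeq2 called 7 of the 15 and limma-voom 3, where they called 10.2% and 3.53% of all genes. Cdx2, a homeobox factor of intestinal identity, fell from 199 and 165 to 60.9 and 27.9 CPM (-2.03 ± 0.34, edgeR adjusted p = 0.0373), a call that ended when either WT library was left out. Car1, a carbonic anhydrase of colonocytes, fell from 3002 and 6491 to 1112 and 1082 CPM (-2.11 ± 0.39, edgeR adjusted p = 0.0469), and did not pass without Esr2-KO 2, with 1 CPM in 2 libraries as the filter or under the replicate block. The summed level of the list was 19820 and 21990 CPM in the WT libraries, against 19010 and 18710 CPM in the knockouts. Of the markers of enteric neurons and glia none of 14 passed with edgeR. At an unadjusted edgeR p under 0.05 there were 8, where 20.6% of all genes reached that level. All 14 log2 fold changes were negative, with a median of -0.51. The summed level of these markers was 197 and 205 CPM in the WT libraries, against 149 and 137 CPM in the knockouts. Tac1, which encodes substance P (-0.62 ± 0.15, edgeR adjusted p = 0.0795), and Gfap, a filament protein of glia (-1.46 ± 0.43, edgeR adjusted p = 0.129), led them, and DESeq2 called both but limma-voom neither. Gfap stood at 16.1 CPM in WT 1 and 6.38 CPM in WT 2, against 3.80 and 4.40 CPM in the knockouts. Of the pancreatic list Spink1, a trypsin inhibitor, rose from 120 and 138 to 286 and 349 CPM (1.30 ± 0.16, edgeR adjusted p = 0.0204), and did not pass without WT 1. All 24 genes of that list tested with edgeR had positive log2 fold changes, with a median of 11.4, far above that of Spink1. Of them 23 had an unadjusted edgeR p under 0.05. DESeq2 called 25 of that list and limma-voom 2. The summed level of the pancreatic list was 2395 and 2792 CPM in the WT libraries, against 3922 CPM in Esr2-KO 1 and 248100 CPM in Esr2-KO 2. The excess of the list thus lies mainly in 1 library, Esr2-KO 2. None of the 13 myeloid, 12 smooth muscle or 9 fibroblast markers tested passed with edgeR, DESeq2 or limma-voom, and 4, 0 and 1 had an unadjusted edgeR p under 0.05, with median log2 fold changes of -0.05, -0.0006 and 0.14. Those with the smallest p were Ccr2 (-0.72) and Cd68 (0.55) of myeloid cells, Mylk (-0.33) and Tpm2 (0.23) of smooth muscle, and Pdgfra (-0.29) and Col1a1 (0.30) of fibroblasts.

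**Figure D4:**
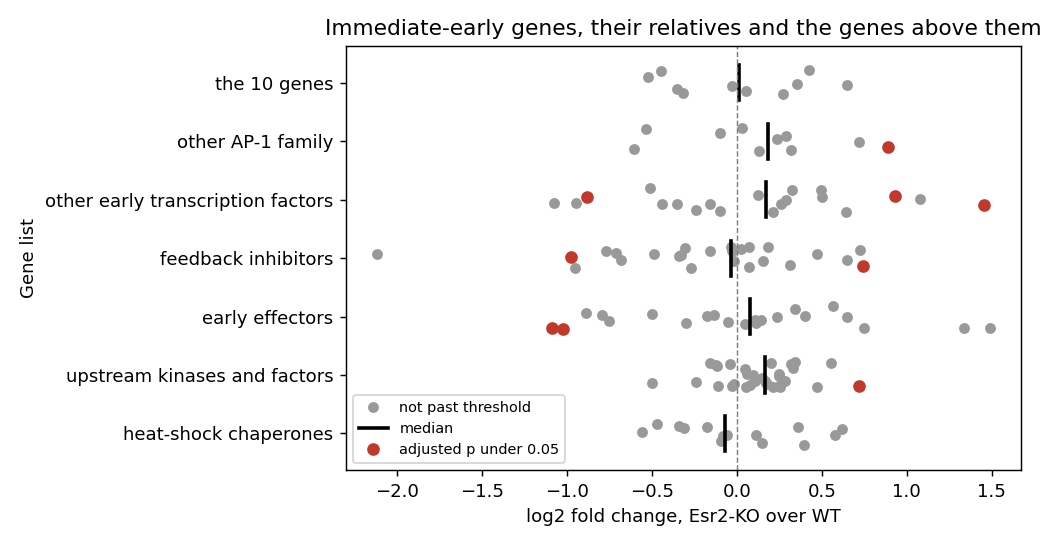
Log2 fold change of Esr2-KO over WT for each tested gene of 7 lists, with red points at an adjusted p under 0.05 and a bar at each list's median. The 10 genes and the 14 heat-shock chaperones hold no red point, and the medians lie between -0.07 and 0.18.

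Heat-shock chaperones, which tissue warming and dissection also induce, were read as another check of handling, whose part in their levels was not tested. None of 14 tested passed with edgeR or limma-voom, where 2.69% and 3.53% of all genes passed. At an unadjusted edgeR p under 0.05 there were 5, where 20.6% of all genes reached that level. The median log2 fold change was -0.07, with 6 positive and 8 negative. DESeq2 called 5 of the list, where it called 10.2% of all genes. Of these 5, Bag3, Hspa8 and Hsp90ab1 were higher and Hsp90aa1 and Hspd1 lower in Esr2-KO. Hspa8, the constitutive cytosolic HSP70, stood at 695 and 900 CPM in the WT libraries, against 1151 and 1292 CPM in the knockouts (edgeR adjusted p = 0.178). Bag3, a co-chaperone induced by HSF1, stood at 31.7 and 35.3 CPM in the WT libraries, against 47.8 and 52.5 CPM in the knockouts (0.58 ± 0.13, edgeR adjusted p = 0.0688), and passed also without a low-count filter and without Esr2-KO 1. Dnajb1, the co-chaperone of inducible HSP70, stood at 69.2 and 76.7 CPM in the WT libraries, against 93.7 and 93.3 CPM in the knockouts (0.36 ± 0.11, edgeR adjusted p = 0.141). The inducible HSP70 genes Hspa1a and Hspa1b had at most 4 counts in any library. They are near-identical copies whose shared reads the counting could have dropped, so that these counts are uncertain.

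By root mean square difference of centred log2 CPM over the 4 libraries, the genes nearest to the mean profile of the 10 were Vapa, Eif4a-ps4, Cinp, Zmym4, Zfp652, Ube2e3, Tagap1 and Nde1, at 0.0118 to 0.0178, out of 11572 candidates. That mean profile was nearly flat, at 0.12, -0.14, 0.02 and -0.01 in WT 1, WT 2, Esr2-KO 1 and Esr2-KO 2, while the single members lay 0.194 (Klf6) to 0.346 (Klf2) away from it. Nearest to Fos were Dcbld2, Zfp60, Ddx11, Tubd1 and Trpv6, at 0.0558 to 0.0878. With 4 libraries, many genes can lie this close, and these are descriptions.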

How the data were processed

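Per the labels' protocols, directional libraries were built from Trizol-extracted colon RNA after ribosomal RNA depletion. Reads were aligned with HISAT2 to mm10, per the submitters' processing notes. The deposited values are whole-number counts per gene symbol with no normalization, as the values show. For the counting program, its annotation and its use of strand: not given in the sources used here. Of 46095 symbols 20580 had no count.

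Genes were kept with filterByExpr (minimum count 10, minimum total 15), which left 17169, scaled by TMM (factors 1.08, 1.04, 1.04 and 0.856) and tested in R 4.3.3 with edgeR 4.0.16 (glmQLFit, glmQLFTest, two-sided, Benjamini-Hochberg over all genes). Standard errors came from the F statistic. Alternatives used DESeq2 1.42.0 and limma 3.58.1, among others. Counts of the libraries of a group differed by more than sampling noise (chi-square per degree of freedom 39.7 in WT and 478 in Esr2-KO). The procedure was tested on simulated counts. The members and gene lists were chosen with earlier results of these data known. The genes named are the 10 members, those of each list past the edgeR threshold or else the 2 with the smallest p, and those nearest in profile. Jund, the Nr4a genes and the genes that DESeq2 or limma-voom called without edgeR (outside the pancreatic and epithelial lists) were named beyond that rule, after their values were seen.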

Additional observations from a re-analysis of the deposited data

How the results depend on the processing

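Over 14 alternatives, the direction of Fosb, Jun, Junb, Klf2, Klf6 and Ier2 was the same throughout, and 10 of 140 values for the 10 genes turned sign. Fos turned to 0.04 with limma-voom, under the replicate block (0.043) and with the pairing crossed (0.044), and lay between -0.41 and 0.53 with 1 library left out (0.53 without WT 1, 0.07 without Esr2-KO 1). Egr1 turned to -0.083 with library totals alone, and with 1 library left out lay between -0.28 (without Esr2-KO 1) and 0.33, turning also without WT 2 (-0.0090). With 1 library left out Atf3 lay between -0.67 and 0.14 and Nr4a1 between -0.85 and 0.17, both turning without WT 1, and Dusp1 between -0.0015 (without Esr2-KO 2) and 0.51. The cause was not tested. Library totals alone moved the median of all genes to -0.17 and that of the 10 to -0.15. Leaving out 1 library took the median of the 10 from -0.21 to 0.19.

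Of the 10, 0 to 1 passed when 1 library was left out, and 1 (Klf2) without a low-count filter or with DESeq2. The count over all genes was 462, and became 695 with library totals alone (208 higher and 487 lower, against 223 and 239), 1916 with no low-count filter, 1693 with DESeq2 and 165 to 1804 with 1 library left out. Of the 77 related genes 8 passed, and 22 with no low-count filter, 20 with DESeq2 and 0 to 16 with 1 library left out. Of the 33 upstream genes 1 passed, 0 with library totals alone or the replicate block, and 0 to 2 with 1 library left out.

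Deviations of same-numbered libraries correlated at -0.102 across 12270 genes, so that no pairing by number was seen. With 1 difference in each group, the correlation cannot settle whether the samples are paired. The replicate block gave 490 calls over all genes and 0 of the 10. The crossed pairing, chosen after seeing the data, gave 814 and 0. At n = 2 per group the 95% intervals of the log2 fold changes reached as far as 0.997 (Klf2) and -1.30 (Fosb).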
